A study of Mus musculus with 2 samples.

Results

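The 9 hedgehog genes described here are the ligand gene Shh, the receptor gene Ptch1, the ligand-binding antagonist gene Hhip, the co-receptor genes Boc, Cdon and Gas1, and the transcription factor genes Gli1, Gli2 and Gli3. They were chosen by name from the pathway, with earlier results of these data known. All probe sets annotated with exactly 1 of these symbols were read separately. This gave 23 of the 45037 non-control probe sets and 9 of the 18193 genes with a symbol of their own. RNA came from whole limb buds of C57BL/6 mouse embryos at E10.5, and the 2 groups were a Bhlha9 knockout and wild type, with 1 array each. Bhlha9 is a transcription factor gene of the basic helix-loop-helix class that the limb bud expresses. The sources used here do not give the knockout allele, the number of embryos behind each RNA or the shares of fore and hind limb buds.

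In the hedgehog pathway a secreted ligand binds Ptch1 and so relieves the block that Ptch1 places on Smo, and active Smo changes the Gli proteins from repressors to activators of transcription. In the limb bud Shh is made in the polarizing zone at the posterior margin, and it sets the number and identity of the digits together with Gli3, the main Gli repressor of this tissue. Ptch1, Hhip and Gli1 are transcribed in cells that receive the signal, and Ptch1 and Hhip in turn bind the ligand and limit its spread.

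Signals are MAS 5.0 intensities, and a probe set was called detected above the 40th percentile of its array, 41.8 on the knockout and 41.2 on the wild-type array. Log2 ratios are the knockout value minus the wild-type value after raising lower signals to that floor, and where only 1 array was detected the fold is a bound. With 1 array per genotype no test was possible, so "higher" and "lower" describe these 2 arrays, and a smaller number of cells of a type cannot be told apart from less RNA per cell. Measurement error was read from how far the brightest pair of probe sets disagreed in each of 5440 genes, which gave an SD of 0.28 for 1 log2 ratio. Only probe sets detected on both arrays entered. Each such SD was estimated from the median absolute deviation, which gives little weight to the largest disagreements. With the genes split into 4 equal groups by the signal of the dimmer probe set, the SD was 0.45 in the dimmest group and 0.16 in the brightest, and it leaves out differences between embryos and dissections. The probe set of the targeted gene Bhlha9 was below the floor on both arrays, at 1.70 in the knockout and 7.87 in wild type, and checked nothing. All 12 marker genes of limb mesenchyme, the labelled tissue, were detected on both arrays. Most markers of liver, neural tube and muscle were higher on the knockout array, and they are given with the members they accompany. All lists were chosen with earlier results of these data known, so their counts only describe these arrays.

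Start-site sequences are shown for 3 members, Gli3 because it had the lowest ratios of the bright members, and Ptch1 and Hhip because they are transcribed in response to the ligand. They run from 250 bases before to 50 bases after the gene's start in RefSeq's GRCm38.p6 annotation, 5′ to 3′ on the gene's strand, and capitals mark an E-box, the site CANNTG that helix-loop-helix dimers bind. The Gli3 window lies at chr13:15463473-15463772 on the plus strand, the Ptch1 window at chr13:63565686-63565985 on the minus strand and the Hhip window at chr8:80057959-80058258 on the minus strand.
Gli3: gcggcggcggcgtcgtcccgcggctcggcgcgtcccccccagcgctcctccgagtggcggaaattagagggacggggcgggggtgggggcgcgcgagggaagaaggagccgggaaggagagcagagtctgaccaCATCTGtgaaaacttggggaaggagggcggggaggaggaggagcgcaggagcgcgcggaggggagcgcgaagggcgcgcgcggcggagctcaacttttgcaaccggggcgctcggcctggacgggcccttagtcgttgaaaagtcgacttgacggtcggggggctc
Ptch1: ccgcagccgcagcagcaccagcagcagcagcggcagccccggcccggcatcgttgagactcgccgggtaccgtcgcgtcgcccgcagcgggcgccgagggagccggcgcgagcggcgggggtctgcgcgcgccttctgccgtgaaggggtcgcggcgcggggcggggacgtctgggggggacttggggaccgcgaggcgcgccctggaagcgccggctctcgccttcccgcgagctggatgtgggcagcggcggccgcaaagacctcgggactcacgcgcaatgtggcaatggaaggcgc
Hhip: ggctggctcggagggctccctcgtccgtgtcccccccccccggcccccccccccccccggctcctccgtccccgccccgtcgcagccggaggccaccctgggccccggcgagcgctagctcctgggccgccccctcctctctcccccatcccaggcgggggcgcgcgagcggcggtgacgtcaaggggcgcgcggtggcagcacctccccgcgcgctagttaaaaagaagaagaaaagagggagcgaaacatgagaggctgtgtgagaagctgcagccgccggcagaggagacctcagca
Entries were found for 6 of the 9 genes, the others being Cdon, Gas1 and Gli2, and Shh, Gli1 and Boc were not matched. An E-box was present in 1 of the 6 windows, that of Gli3, where CATCTG began 116 bases before the start site. Of all 32851 windows in the table, 72.3% held CANNTG. The Gli consensus site GACCACCCA and its shorter core CCACCCA, which lies within it, were searched on both strands, and neither was present in the 6 windows. They occurred in 0.253% and 9.30% of all windows. The GC content was 71% in the Gli3, 76.3% in the Ptch1 and 73.7% in the Hhip window.

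Of the 23 probe sets, 18 were detected on at least 1 array, 16 of them on both and 2 on the knockout array only, and 5 were under the floor on both. Those 2, both for Hhip, were detected through the array on which they were higher. Among the 18, Shh and Hhip gave 2 probe sets at least 2-fold higher in the knockout, where 3.22% of all 29201 detected probe sets were as well. None of the 18 was at least 2-fold lower, against 4.51% of all. At a threshold of 1.5-fold, 4 probe sets of 3 genes, Gli3, Gli2 and Boc, were lower, against 15.6% of all, and 3 were higher, against 10.2%. Among the 16 probe sets detected on both arrays 12 ratios were negative, and the median was -0.41, where all such probe sets had a median of -0.06 and 54.7% negative ratios.

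**Figure D1:**
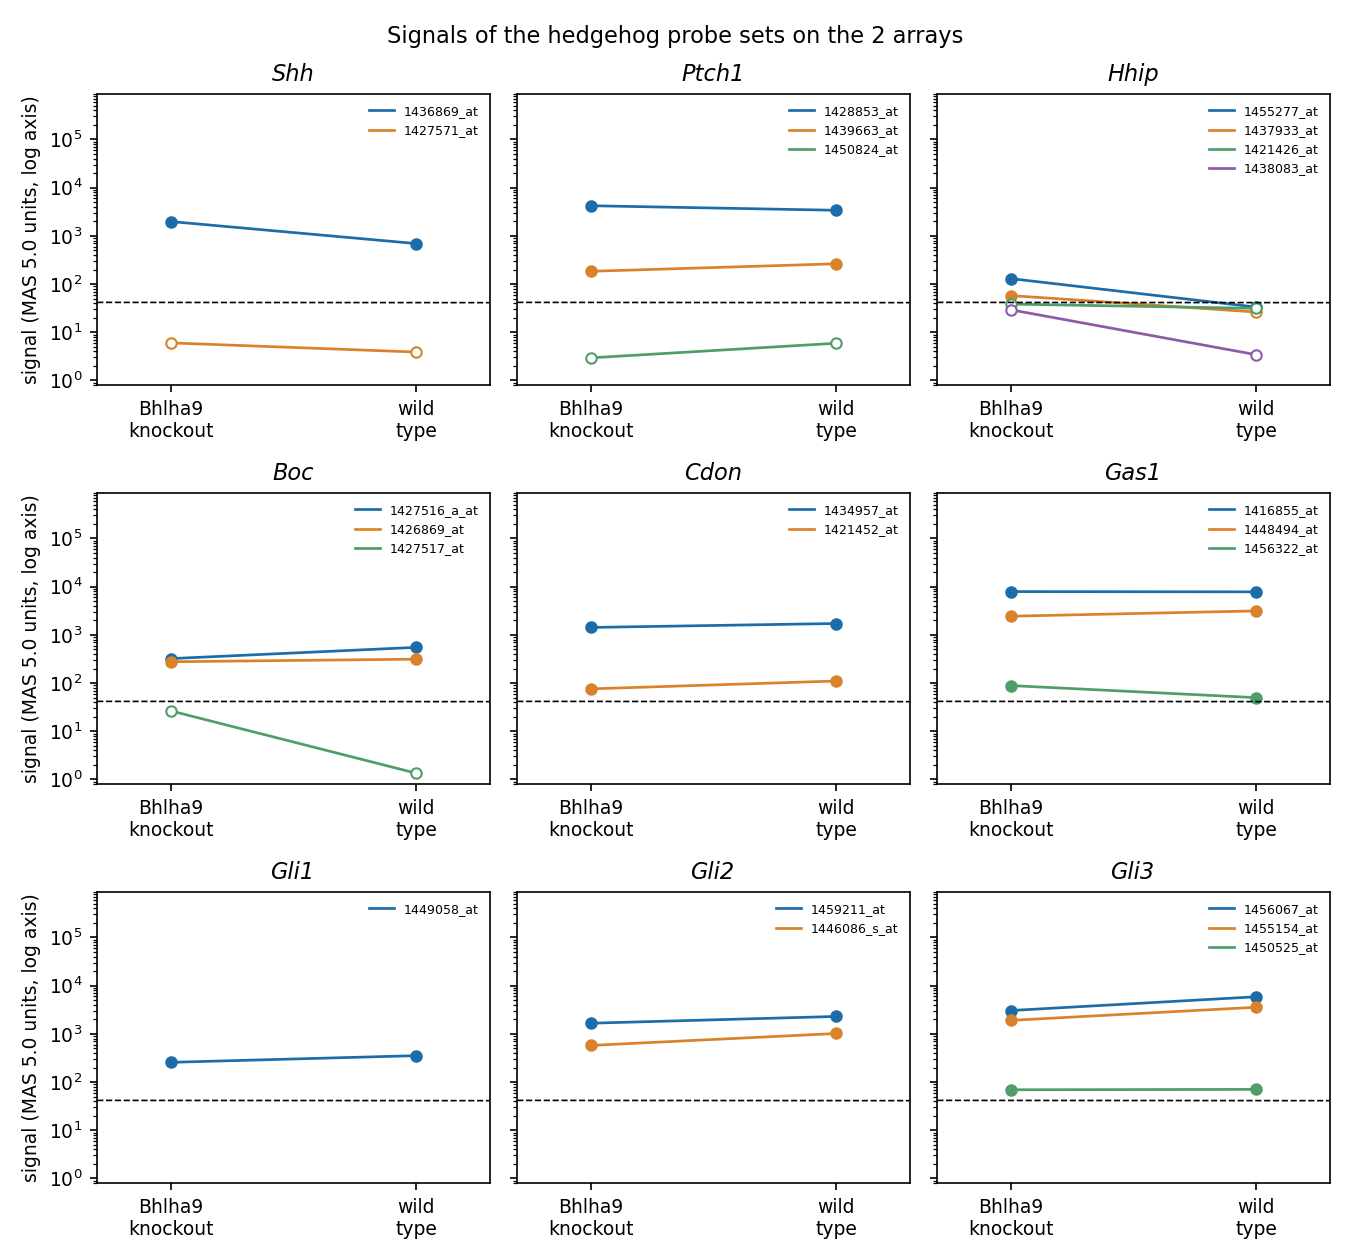
Signal of each hedgehog probe set on the Bhlha9 knockout and the wild-type array, on a log axis in MAS 5.0 units, with 1 panel per gene and 1 line per probe set. Filled points are above the floor (dashed line) and open points are below it. The bright Shh probe set is higher on the knockout array (1986 against 693), the 2 bright Gli3 probe sets are lower (3055 against 5891 and 1908 against 3575), and Hhip is above the floor only on the knockout array.

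The ligand gene showed the largest difference among the members detected on both arrays. The bright Shh probe set, 1436869_at, read 1986 on the knockout array and 693 on the wild-type array. This is a 2.87-fold higher signal, a log2 ratio of 1.52 with a probe-set SD of 0.16 at this brightness. Among the 1000 probe sets of nearest mean signal, 0.3% had a ratio at least as high. The other Shh probe set, 1427571_at, was below the floor on both arrays, at 6.03 in the knockout and 3.90 in wild type, so the Shh difference rests on 1 probe set. The genes whose pair of signals was nearest to that of Shh, by distance over the 2 arrays among 11490 genes, were Zfp991 (1924 in the knockout and 704 in wild type), the epithelial adhesion gene Epcam (1716 and 667) and Dact1 (1813 and 801). With 2 arrays this likeness says no more than that their signals are alike.

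Shh is also made outside the polarizing zone, in floor plate, notochord and gut endoderm, and some markers of these tissues were higher on the same array. Of 14 genes listed for gut endoderm and its derivatives, 10 were detected, all 10 with positive ratios by their brightest probe set. Gata6 was at 0.26 by that probe set and at -0.18 and -0.17 by its others. At least 2-fold higher were 6 genes, against 4.15% of all 13088 genes detected. The 6 were the endoderm factors Foxa1 (at least 7.62-fold), Foxa2 (at least 4.82-fold), Hnf4a (at least 4.76-fold) and Gata4 (at least 2.16-fold) and the epithelial genes Cdh1 (3.28-fold) and Epcam (2.57-fold). The summed signal of the list was 6378 in the knockout and 2966 in wild type, while Cdx2, Pdx1 and Onecut1 were below the floor on both. Foxa1, Foxa2, Foxa3, Hnf4a and Gata4 were detected on the knockout array only, which fixed the sign of these 5 ratios in advance. Over the 5 genes of the list detected on both arrays, the median log2 ratio was 0.48. Of the floor plate and notochord list 4 genes were detected, and those past 2-fold were again Foxa1 and Foxa2, which both lists hold. The pair detected on both arrays had a median of 0.13, with the midline gene Ntn1 at 587 in the knockout and 404 in wild type and Spon1 at 395 in the knockout and 481 in wild type. Foxj1, Nog and Chrd were below the floor on both, and the list summed to 1553 in the knockout and 975 in wild type. The part of these tissues in the Shh signal was not tested.

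The receptor gene Ptch1 gave probe sets of opposite direction. The bright one, 1428853_at, read 4224 in the knockout and 3399 in wild type, a log2 ratio of 0.31 with a probe-set SD of 0.16. The dimmer one, 1439663_at, read 184 in the knockout and 264 in wild type, a ratio of -0.52 with an SD of 0.34. The remaining probe set, 1450824_at, did not reach the floor, with 2.95 in the knockout and 5.93 in wild type. Ptch1, which carries the signal's own feedback, thus differed by 1.24-fold in its brightest reading, and among the 1000 probe sets nearest in signal 25.1% had a ratio at least as high.

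Hhip, which encodes a membrane protein that binds hedgehog ligands without passing on the signal, was low throughout. Its brightest probe set, 1455277_at, read 130 in the knockout and 33.3 in wild type, which is at least 3.16-fold higher against the wild-type floor. The next, 1437933_at, read 57.8 in the knockout and 26.3 in wild type, at least 1.40-fold higher. The remaining probe sets, 1421426_at and 1438083_at, stayed below the floor, with 38.5 and 29.3 in the knockout and 31.4 and 3.43 in wild type. All 4 signals were higher on the knockout array, 2 of them without reaching the floor on either, and near the floor such readings are noisy. Hhip and Ptch1 are also transcribed wherever other tissues receive hedgehog signals. In a list of ventral neural tube genes, 5 of 8 were detected, 4 of them on the knockout array only, so that their ratios could only be positive. The sum was 546 in the knockout and 101 in wild type, where 7 of the 8 readings lay below the floor. At least 2-fold higher were 2 genes, Sim1 and Pax6, against 4.15% of all detected genes. Sim1 was 4.65-fold higher, with its other probe set at -1.57 in the opposite direction. Pax6, which the neural tube and neurons list also holds, was at least 3.55-fold higher. Nkx2-2 was below the floor on both arrays, at 10.9 and 2.04. In the list for sclerotome, the hedgehog-responsive part of the somite, 6 of 7 genes were detected. At least 2-fold higher were 2, against 4.15% of all detected genes, Foxc2 at 2.71-fold and Uncx at 2.20-fold. Pax9 was detected on the knockout array only, so its ratio could only be positive. Tbx18 ran the other way, at -0.53, with its other detected probe set at -0.71. The sums were 3097 in the knockout and 2698 in wild type. In the list for mesenchyme around gut and lung 5 of 7 genes were detected, 4 with positive ratios and 1 with a negative one. The median was 0.57, and it was 0.33 over the 4 genes detected on both arrays. Barx1 was detected on the knockout array only, so its ratio could only be positive. Nkx2-3 was at 0.09, with its other detected probe set at -0.56. Past 2-fold, 1 gene was higher, Foxf2 (2.41-fold), against 4.15% of all detected genes. The 1 lower gene, against 2.65%, was Tbx4 (2.35-fold), also a hindlimb gene. The sum was 1957 in the knockout and 3338 in wild type, and without Tbx4 it was 761 in the knockout and 528 in wild type. The part of these tissues in the Hhip and Ptch1 readings was not tested.

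**Figure D2:**
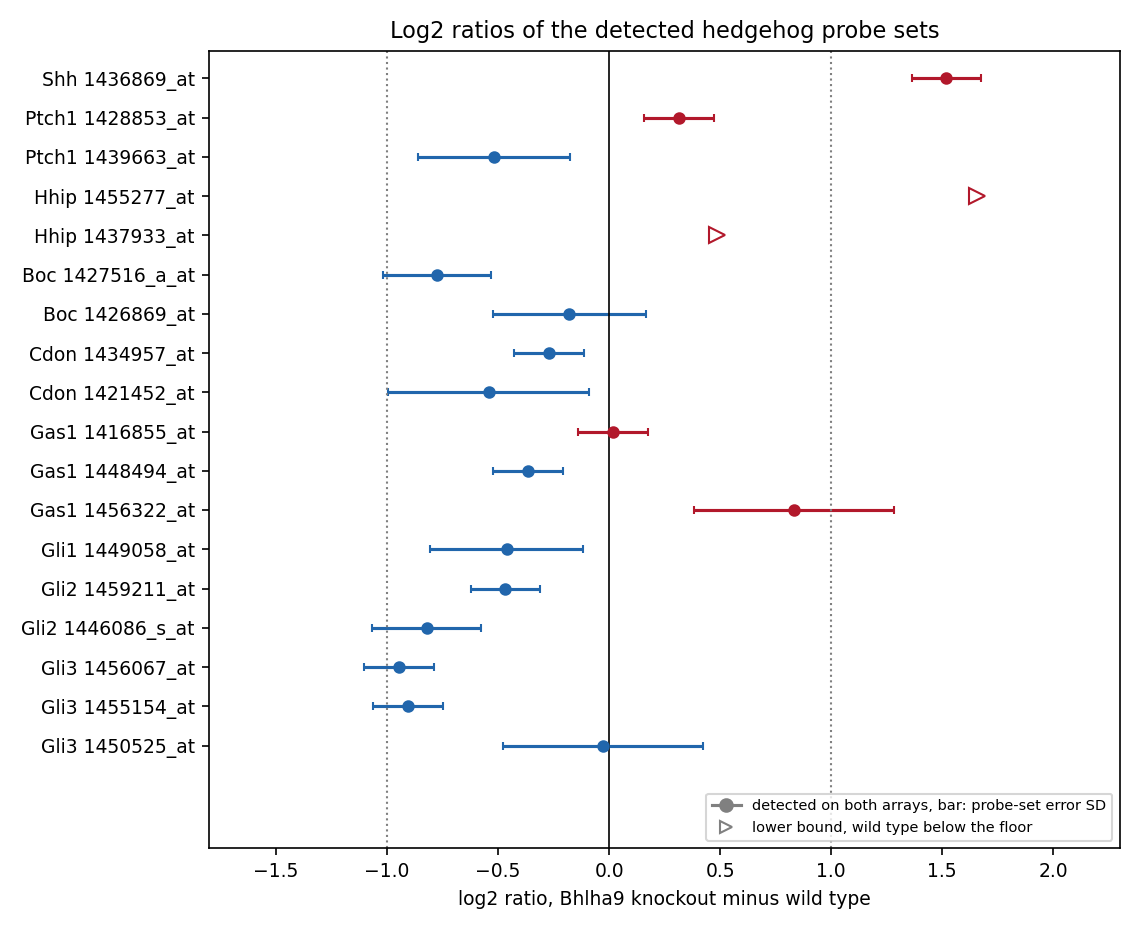
Log2 ratio, knockout minus wild type, of the 18 hedgehog probe sets detected on at least 1 array. Points with bars were detected on both arrays, and the bar is the probe-set SD of genes of like signal (0.16 to 0.45). Open triangles are lower bounds and dotted lines mark 2-fold. Shh (1.52) and the brighter Hhip probe set (at least 1.66) lie past the upper line, and the bright Gli3 probe sets (-0.95 and -0.91) lie short of the lower one.

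None of the detected co-receptor probe sets passed 2-fold. Boc encodes an immunoglobulin-type surface protein that presents the ligand to Ptch1. Its probe set 1427516_a_at read 322 in the knockout and 551 in wild type, 1.71-fold lower, with a log2 ratio of -0.77 and an SD of 0.24, and 1426869_at read 277 in the knockout and 314 in wild type, a ratio of -0.18. The remaining Boc probe set, 1427517_at, was below the floor on both arrays and shares its source sequence with the first in the annotation. Cdon, a relative of Boc with the same role, had negative ratios by both probe sets, -0.27 (1428 in the knockout and 1723 in wild type) and -0.54 (75.9 and 111). The second of these is a dim reading with an SD of 0.45. Gas1, which encodes a membrane-anchored co-receptor that also enhances the response to low ligand, was bright and nearly equal by 1416855_at, at 7916 in the knockout and 7819 in wild type, a ratio of 0.02 that turned negative after quantile or loess normalization. Its probe set 1448494_at read 2443 in the knockout and 3146 in wild type, a ratio of -0.36. The dim 1456322_at ran the other way, with 88.8 in the knockout and 49.9 in wild type, a ratio of 0.83. Thus the Boc and Cdon probe sets that were detected were all lower in the knockout, and those of Gas1 did not share a direction.

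The Gli factors had negative ratios by all 6 of their probe sets, of which the dim Gli3 one (-0.03) turned slightly positive under the 3 other scalings. Gli3 was measured by 2 bright probe sets, which read 3055 in the knockout and 5891 in wild type (1456067_at) and 1908 in the knockout and 3575 in wild type (1455154_at). These are 1.93-fold and 1.87-fold lower signals, log2 ratios of -0.95 and -0.91 that lie within the probe-set SD of 0.16 of each other. Among the 1000 probe sets nearest in signal, 0.8% and 1.6% had ratios at least as low. The remaining Gli3 probe set, 1450525_at, was dim and nearly equal, at 69.3 in the knockout and 70.6 in wild type.

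Gli2, the main activator among the Gli proteins, had ratios of -0.47 by 1459211_at, with 1666 in the knockout and 2303 in wild type, and of -0.82 by 1446086_s_at, with 577 in the knockout and 1019 in wild type. Both carry the same source sequence in the annotation, so they are not independent readings, and probe sets of the second type can match several transcripts. Gli1, an activator that is itself induced by the signal, has 1 probe set, 1449058_at, which read 257 in the knockout and 354 in wild type, a ratio of -0.46 with an SD of 0.34. Of the genes transcribed in response to the ligand, Gli1 therefore had a negative ratio and Ptch1 one of each sign. The Hhip ratios could only be positive, since both probe sets were detected on the knockout array only.

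**Figure D3:**
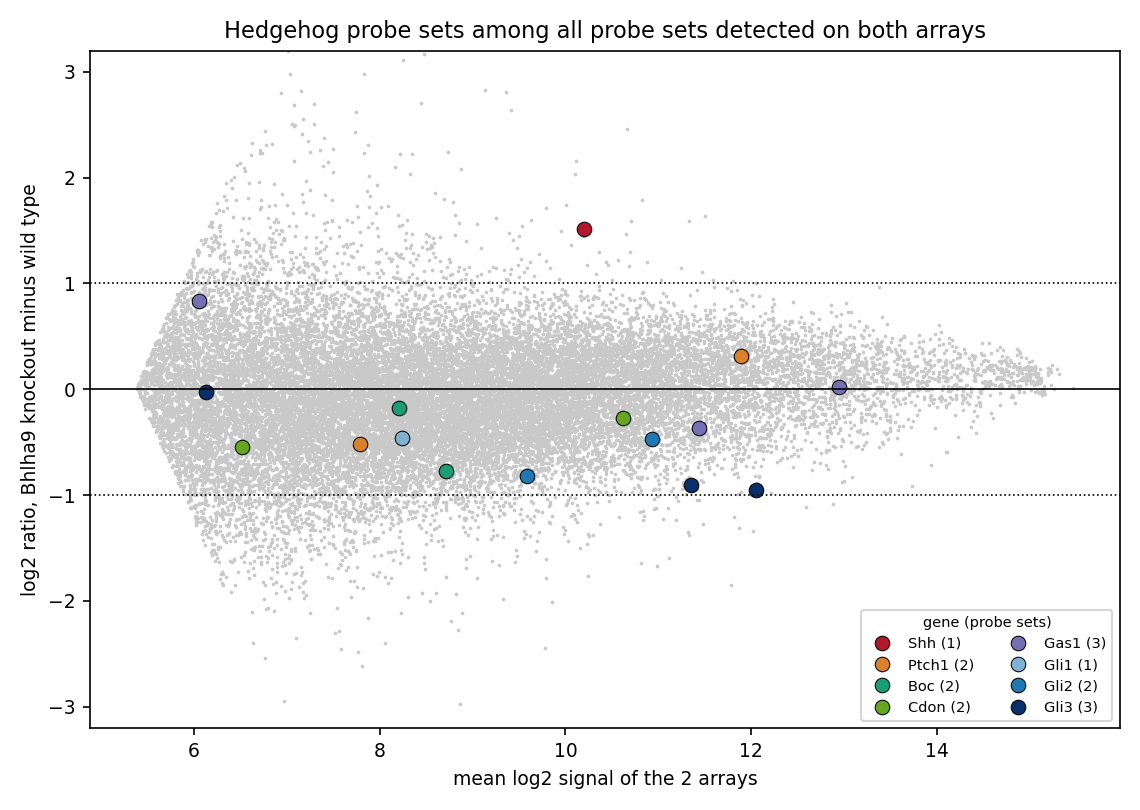
Log2 ratio, knockout minus wild type, against mean log2 signal for all 24843 probe sets detected on both arrays (grey) and the 16 hedgehog probe sets among them (coloured by gene). Dotted lines mark 2-fold, and 10 grey probe sets lie outside the plotted range. Shh stands above the grey cloud at its signal, the 2 bright Gli3 probe sets lie along its lower edge, and most other members lie within it.

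Gli3 and Gli2 are expressed across the limb mesenchyme, and the markers of that tissue were lower on the same array. All 12 genes of the list had negative ratios (11 of 12 after median centring or loess), with a median of -0.89, and the list summed to 20323 in the knockout and 35084 in wild type. The 6 that were at least 2-fold lower (5 after loess), where 2.65% of all detected genes were, were Lmx1b (3.79-fold), Tbx15 (2.84-fold), Msx1 (2.59-fold), Lhx9 (2.52-fold), Tbx4 (2.35-fold) and Pitx1 (2.10-fold). Prrx1, which marks limb mesenchyme broadly, stood at -0.33 in its brightest reading and between -1.12 and -0.36 in 4 others. Lists of liver, neural tube, muscle and limb ectoderm went the other way, where 4.15% of all detected genes were at least 2-fold higher. For embryonic liver all 10 measured genes passed 2-fold upward, led by Afp, Ttr, Alb, Ambp, Serpina1b and Apoa2, with sums of 34117 in the knockout and 368 in wild type. Of the 10, 8 were detected on the knockout array only, so their ratios could only be positive. For neural tube and neurons 11 of 12 were at least 2-fold higher, led by Fabp7, Nefl, Sox2, Nefm, Stmn2 and Neurod1, with sums of 5898 in the knockout and 1029 in wild type. Of the 12, 5 were detected on the knockout array only, with the same limit. For muscle 6 of 8 were at least 2-fold higher, namely Mylpf, Tnnt1, Myl1, Myog, Myf5 and Myod1. Of these, Tnnt1, Myl1 and Myod1 were detected on the knockout array only, so their ratios could only be positive. Des was at 0.38, and Actc1 ran the other way, with 1067 in the knockout and 1481 in wild type, a ratio of -0.47. The muscle list summed to 3585 in the knockout and 2030 in wild type. Limb ectoderm and ridge had 5 of 9 detected genes at least 2-fold higher, namely Sp8, Trp63, Dlx5, Dlx2 and Krt5, although the other Trp63 probe sets were at -0.20 and 0.01. The sums were 2759 in the knockout and 1421 in wild type, with Dlx6 and En1 below the floor on both. Endothelium had 5 of 6 negative ratios (4 after quantile or loess normalization), a median of -0.70 and sums of 3631 in the knockout and 4530 in wild type. Tie1 and Kdr were lower past 2-fold. Tie1 was detected on the wild-type array only, so its ratio could only be negative. Cdh5 was at -0.69, with its other detected probe set at 0.01. Red cell genes had none past 2-fold, with sums of 90193 in the knockout and 84952 in wild type. The part of these tissues in the Gli readings was not tested.

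Other genes of ligand production and reception were read from lists by their brightest probe set. Of 8 genes for the other ligands and for ligand release, 5 were detected, of which 2 were lower past 2-fold, against 2.65% of all detected genes, and 0 higher (1 after median centring), against 4.15%. Their median log2 ratio was -0.59, against 0.01 over all detected genes. Over the genes detected on both arrays these medians were -0.87 and -0.01. Disp1, which encodes the transporter that releases lipid-modified ligand from the cells that make it, read 423 in the knockout and 936 in wild type, 2.21-fold lower, and its other detected probe set had a ratio of -0.83. Scube1, of a family of secreted proteins that help to free the ligand, read 117 in the knockout and 259 in wild type, also 2.21-fold lower. Scube2, of the same family, read 81.4 in the knockout and 3.26 in wild type, at least 1.98-fold higher. It was detected on the knockout array only, so its ratio could only be positive. The ligand genes Ihh and Dhh were below the floor on both arrays. Among 6 measured genes of a list of 8 for other receptors and surface modulators, 1 passed 2-fold upward and 0 downward, against the same shares. The median was 0.02. The higher one was Lrp2, an endocytic receptor, with 95.2 in the knockout and 42.9 in wild type, close to the floor. Smo, the transducer that Ptch1 holds in check, read 2386 in the knockout and 3175 in wild type, a ratio of -0.41, and its other probe sets lay between -0.49 and -0.30.

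Of 22 measured genes that carry the signal through the primary cilium and act on Gli proteins, 16 had negative and 6 positive ratios, and the median was -0.27. Past 2-fold there were 0 higher genes, against 4.15% of all detected genes, and 1 lower, against 2.65%. Evc, a ciliary partner of Smo, was the lower gene, with 152 in the knockout and 307 in wild type, 2.03-fold, and it passed 2-fold under none of the 3 other scalings. Kif7, a kinesin at the cilium tip that regulates Gli processing, read 318 in the knockout and 598 in wild type, a ratio of -0.91. Sufu, which binds and restrains Gli proteins, read 716 in the knockout and 1013 in wild type, a ratio of -0.50. Its 2 other probe sets had ratios of -0.65 and -0.09.

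Genes downstream of Shh in the limb bud differed in direction. Of 18 measured genes that respond to Shh or mark the posterior limb bud, 2 passed 2-fold upward, against 4.15% of all detected genes, and 1 downward, against 2.65%. The median was -0.20, and it was 0.05 over the 16 detected on both arrays, without Hoxd12 and Hoxa13, which were detected in wild type only. Tbx2, a T-box repressor of the posterior margin, read 468 in the knockout and 193 in wild type. Foxf2, a forkhead gene that gut mesenchyme also expresses, read 112 in the knockout and 46.6 in wild type. Grem1, the BMP antagonist through which Shh sustains ridge FGFs, read 638 in the knockout and 1575 in wild type, 2.47-fold lower. Hand2, which acts upstream of Shh and is maintained by it, was at -0.37 and 0.60 by its 2 probe sets, and Hoxd13 was at -0.03 and 0.10. Of 4 detected anterior limb bud genes none passed 2-fold either way, against the same shares, and their median was -0.54.

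The factors that act on the limb enhancer of Shh included several lower genes. Of 15 measured, 3 were lower past 2-fold, against 2.65% of all detected genes, and 1 was higher, against 4.15%. The median was -0.37. Etv4 and Etv5, ETS factors that keep Shh out of the anterior limb bud in the mouse, read 151 and 782 in the knockout, against 517 and 2026 in wild type, and were 3.43-fold and 2.59-fold lower. The other detected Etv4 probe set had a ratio of -1.73, and those of Etv5 lay between -1.21 and -0.44. Lmx1b, the dorsal determinant, was also named above, and Gata4 was the higher gene. Gata4 was detected on the knockout array only, so its ratio could only be positive. Lmbr1, the gene that hosts the enhancer, was close to equal, with ratios of 0.14, 0.06 and -0.01. Among 5 genes for FGFs of the Shh feedback loop, 1 passed 2-fold upward and 0 downward, against the same shares, and the median was -0.31. The higher one, Fgf9, was 2.10-fold higher, with 118 in the knockout and 56.0 in wild type. The ridge ligand Fgf8 read 492 in the knockout and 445 in wild type, and Fgf4, which depends on Shh, read 58.8 in the knockout and 86.9 in wild type.

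**Figure D4:**
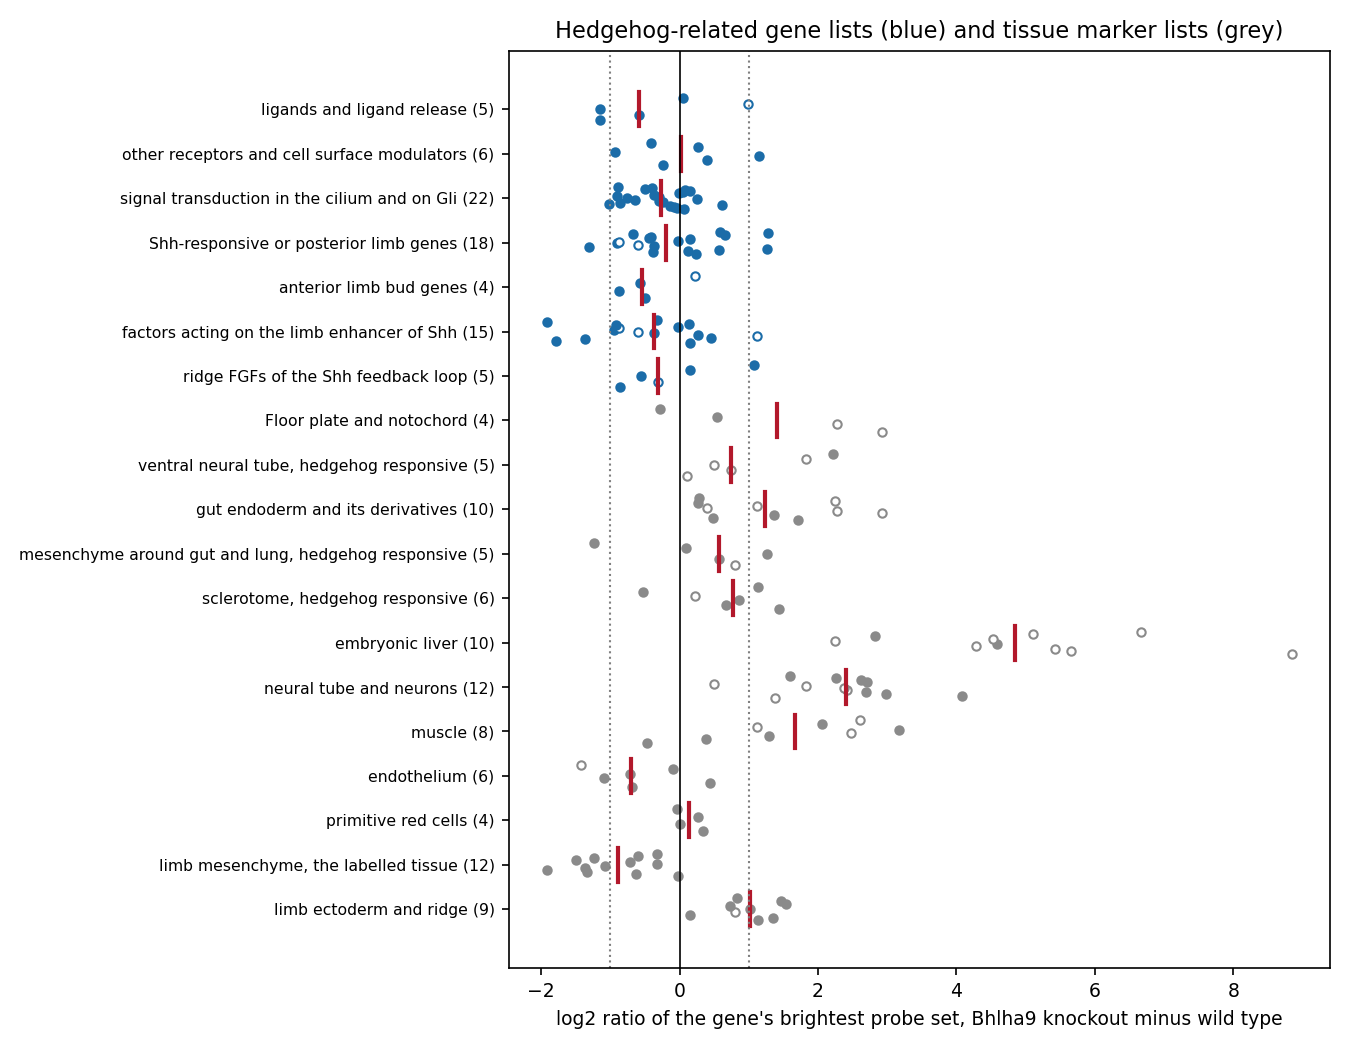
Log2 ratio, knockout minus wild type, of each detected gene of the hedgehog-related lists (blue) and of tissue marker lists (grey), by its brightest probe set, with the number of detected genes in parentheses. Open points are bounds for genes detected on 1 array only, red bars are medians and dotted lines mark 2-fold. The medians of the hedgehog-related lists lie between -0.59 and 0.02, that of limb mesenchyme at -0.89 and that of embryonic liver at 4.85, where 8 of 10 genes are lower bounds.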

How the data were processed

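The series compared total RNA of E10.5 whole limb buds from Bhlha9 knockout and wild-type mouse embryos on Affymetrix mouse genome 430 2.0 arrays, 1 array per genotype. The deposited values are probe set intensities on a linear scale, summarised by MAS 5.0 per the submitters' processing notes and the series' design text. The 2% trimmed mean was 500.0 on both arrays, so each had been scaled to the same level. Such scaling shifts all genes when tissue composition differs.

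Here 64 control probe sets were set aside. Symbols came from the platform annotation (34945 probe sets with 1 symbol), matched by gene identifier to RefSeq genes of GRCm38.p6 for 34741. Signals were raised to the 40th percentile of each array before taking log2, and 2-fold was the threshold. For lists, a gene was represented by its probe set of highest mean signal. The members and lists were chosen with earlier results of these data known. Named genes were all members, Bhlha9, fixed pathway genes, genes past 2-fold in each list (at most 6) and the 3 nearest to Shh. The fold and floor steps were tested on simulated data. The changed probe sets in those data were all drawn from bright wild-type signals, so changes near the floor were little tested. The number of arrays limits the precision, so the genotypes were compared by values and counts alone. The alternatives tried were 3 other scalings (median, quantile, loess), floors at the 20th and 60th percentile, a pseudocount of 32, thresholds of 1.5-fold and 3-fold, and other probe set choices. Python 3.11.15, numpy 2.4.6, pandas 2.3.3, matplotlib 3.10.9, R 4.3.3 and limma 3.58.1 were used.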

Additional observations from a re-analysis of the deposited data

How the results depend on the processing

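No paired analysis was possible because each genotype has 1 array, and for the same reason no replicate could be left out. Under 6 alternatives (scalings, floors and the pseudocount), the Shh log2 ratio stayed between 1.48 and 1.57, and the ratios of the bright Gli3 probe sets stayed between -1.01 and -0.91 and between -0.94 and -0.86. The dim Gli3 probe set and the brightest Gas1 probe set changed sign within -0.03 to 0.04 and -0.08 to 0.06. The brightest Hhip probe set, a bound of 1.66, reached 1.96 when the floor was lowered to the 20th percentile and 1.31 with a pseudocount of 32, and had no ratio once the floor was raised to the 60th. The dimmer one, a bound of 0.49, was 1.13 with the lower floor. The number of hedgehog probe sets at least 2-fold higher was 2, and it became 5 under the lower floor, 1 under the higher floor and 1 at a 3-fold threshold. The number at least 2-fold lower was 0, and it was 1 after quantile normalization, a Gli3 probe set, and 4 at 1.5-fold. Over all probe sets, 941 were higher and 1317 lower. These were 4485 and 4510 with the lower floor, 244 and 444 with the higher floor, 2992 and 4556 at 1.5-fold, and 251 and 207 at 3-fold. No scaling moved the median of all probe sets detected on both arrays by more than 0.06.

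List medians moved with the floor. Under the lower floor they were 1.12 for floor plate and notochord, 7.10 for liver, 1.92 for gut endoderm, 2.41 for muscle, 2.80 for neural tube and neurons and 2.22 for ventral neural tube. Under the higher floor they were 0.39 for floor plate and notochord, 3.24 for liver, 0.38 for gut endoderm, 0.63 for limb ectoderm, 0.0040 for mesenchyme around gut and lung, 0.57 for muscle, 1.60 for neural tube and neurons, 0.33 for ventral neural tube and 0.15 for the FGFs of the Shh loop, where the sign changed. With a pseudocount of 32 they were 0.50 for floor plate and notochord, -0.30 for ligands and ligand release and 0.076 for mesenchyme around gut and lung. A higher floor leaves fewer genes and smaller bounds, and the cause of the other differences was not tested. Of 255 log2 ratios of members and list medians recomputed under alternatives, 234 moved by less than the measurement error.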
